A study of Mus musculus with 4 samples.

Results

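The striated muscle myosin heavy chains, the motor proteins of the sarcomere's thick filament, were examined in cultured muscle stem cells (MuSC) with and without the arginine methyltransferase Prmt5. The group was set by gene name as the embryonic, perinatal, slow, cardiac and fast heavy chains of striated muscle, *Myh3*, *Myh8*, *Myh7*, *Myh7b*, *Myh6*, *Myh2*, *Myh1* and *Myh4*. All 8 had a row in the deposited table of 20065 genes. RNA-seq had been done on 2 control and 2 *Prmt5*-mutant libraries of mouse satellite cells from limb and trunk muscles of adult C57BL/6 animals. The control, labelled wild type, was Pax7CreERT2/Prmt5+/loxP (+TAM) and so also carried the inducible Cre, 1 floxed *Prmt5* allele and tamoxifen exposure. The mutant was Pax7CreERT2/Prmt5loxP/loxP (+TAM), hereafter Prmt5sKO. Cre is expressed from *Pax7* in this model, so that recombination is limited to cells that express *Pax7*, and per the study's methods the sorted cells were expanded in culture and given 4-OH-TAM *in vitro*. The labels do not say whether the libraries of a group came from separate animals or cultures, and p-values measure only the spread between these libraries.

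A myosin heavy chain pairs with a second heavy chain and binds light chains, and its ATPase sets how fast a sarcomere shortens. Skeletal muscle cells switch heavy chains as they mature: differentiating myocytes and fetal fibres use embryonic and perinatal forms, and adult fibres are classed as slow or as fast 2A, 2X and 2B by the heavy chain they hold. Proliferating myoblasts make little striated myosin and rely on the non-muscle heavy chains, and the onset of sarcomeric myosin is a standard sign that a MuSC has left the cell cycle to differentiate.

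The members fall in 3 places in the genome (GRCm38, GENCODE M21). *Myh3* (ENSMUSG00000020908, chr11:67078300-67102291), *Myh2* (ENSMUSG00000033196, chr11:67171027-67197517), *Myh1* (ENSMUSG00000056328, chr11:67200052-67224575), *Myh4* (ENSMUSG00000057003, chr11:67238029-67260446) and *Myh8* (ENSMUSG00000055775, chr11:67277124-67308634) follow each other on the plus strand of chromosome 11. *Myh6* (ENSMUSG00000040752, chr14:54941921-54966927) and *Myh7* (ENSMUSG00000053093, chr14:54970684-54994626) lie side by side on the minus strand of chromosome 14, and *Myh7b* (ENSMUSG00000074652, chr2:155611212-155634307) lies alone on the plus strand of chromosome 2. The longest coding stretch that *Myh1*, *Myh2* and *Myh4* have in common, 140 bases across a splice junction (exons 15 and 16 of *Myh1*, chr11:67207552-67208953 with the intron), shows how close these genes are, and a read inside it cannot be given to 1 gene. The stretch is printed below with the same 140 bases of the other members, in the direction of transcription. Capitals mark the bases that differ from the stretch common to the 3 fast genes.
Myh1, Myh2 and Myh4: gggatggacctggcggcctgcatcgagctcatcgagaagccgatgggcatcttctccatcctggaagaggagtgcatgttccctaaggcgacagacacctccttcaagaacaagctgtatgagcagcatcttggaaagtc
Myh3: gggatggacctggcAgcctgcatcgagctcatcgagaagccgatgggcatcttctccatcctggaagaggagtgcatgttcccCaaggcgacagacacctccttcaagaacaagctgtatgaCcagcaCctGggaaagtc
Myh8: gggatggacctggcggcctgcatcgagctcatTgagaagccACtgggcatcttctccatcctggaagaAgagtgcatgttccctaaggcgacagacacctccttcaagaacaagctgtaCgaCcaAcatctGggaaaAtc
Myh6: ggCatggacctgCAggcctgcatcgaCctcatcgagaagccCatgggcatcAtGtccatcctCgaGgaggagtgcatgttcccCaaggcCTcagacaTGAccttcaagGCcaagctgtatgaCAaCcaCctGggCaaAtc
Myh7: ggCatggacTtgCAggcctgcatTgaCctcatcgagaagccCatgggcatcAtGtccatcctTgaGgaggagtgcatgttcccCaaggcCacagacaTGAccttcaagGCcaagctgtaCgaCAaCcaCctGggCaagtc
Myh7b: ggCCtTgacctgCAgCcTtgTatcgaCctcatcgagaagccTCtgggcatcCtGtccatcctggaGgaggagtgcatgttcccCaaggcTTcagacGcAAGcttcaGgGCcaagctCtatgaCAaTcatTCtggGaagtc
Of these 140 bases, 5 differed in *Myh3*, 9 in *Myh8*, 24 in *Myh6*, 25 in *Myh7* and 31 in *Myh7b*. Pairwise, the longest identical coding runs were 268 bases between *Myh1* and *Myh2*, 245 between *Myh6* and *Myh7*, 94 between *Myh1* and *Myh3*, and 33 between *Myh7* and *Myh7b*.

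Over whole transcripts, the share of 50-base words found in no other annotated gene was lowest for *Myh1* at 69.5% and *Myh2* at 75.4%. It was 79.8% for *Myh6*, 80.0% for *Myh7*, 81.1% for *Myh4*, 87.9% for *Myh8*, 95.2% for *Myh3*, and every such word of *Myh7b* was its own. With words of 100 bases the lowest share was 86.0%, for *Myh1*. The study's read statistics list reads with several positions as unassigned, so that levels per length are understated more for genes with fewer words of their own. At both word lengths *Myh1* had the smallest share and *Myh7b* the largest.

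**Figure D1:**
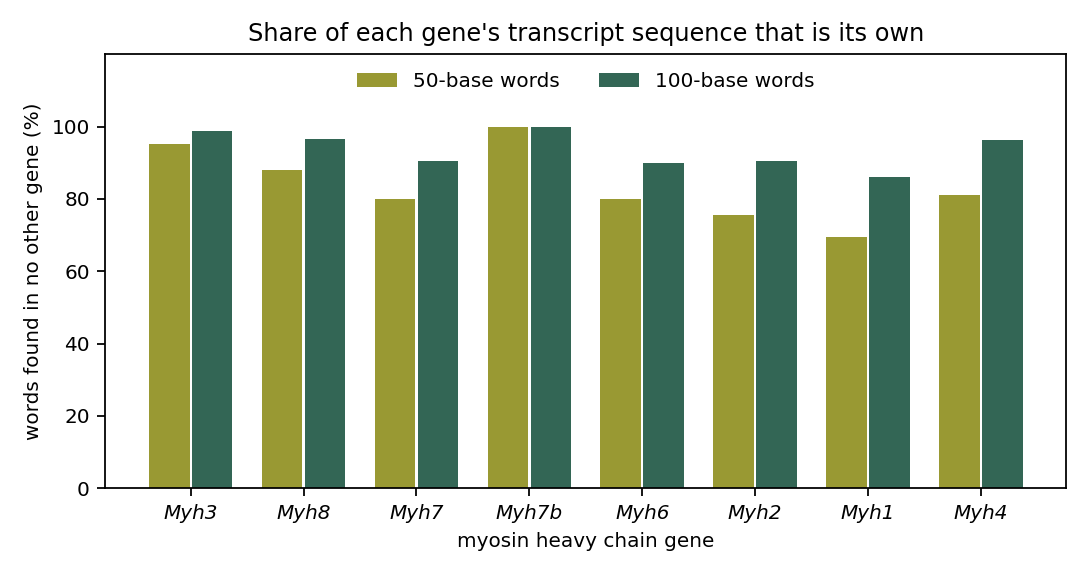
Percent of the 50-base and 100-base words of each gene's annotated transcripts that occur in no other gene's transcripts, with 1 pair of bars per myosin heavy chain gene. *Myh1* has the smallest share of its own 50-base words (69.5%) and *Myh7b* has only words of its own.

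The sequences before the start sites are shown for *Myh3* and *Myh8*, the embryonic and perinatal genes, and for *Myh2*, whose pattern over the libraries differed from both. Each is the 150 bases before the RefSeq start on the plus strand (GRCm38.p6), with E-boxes (CANNTG, the letters bound by MyoD-family factors) and TATAAA, on either strand, in capitals.
Myh3, chr11:67078150-67078299: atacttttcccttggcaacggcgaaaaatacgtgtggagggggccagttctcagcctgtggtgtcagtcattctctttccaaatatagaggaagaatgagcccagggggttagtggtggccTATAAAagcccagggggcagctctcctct
Myh8, chr11:67276974-67277123: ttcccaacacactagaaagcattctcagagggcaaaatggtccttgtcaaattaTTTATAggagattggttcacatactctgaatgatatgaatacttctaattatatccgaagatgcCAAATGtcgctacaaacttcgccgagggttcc
Myh2, chr11:67170877-67171026: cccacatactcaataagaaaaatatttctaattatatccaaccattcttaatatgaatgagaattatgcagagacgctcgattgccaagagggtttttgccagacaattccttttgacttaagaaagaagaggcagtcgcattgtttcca
*Myh3* had TATAAA starting 29 bases before its start. In *Myh8* the only TATAAA, on the opposite strand, overlapped a match to the MEF2 site, and an E-box began 32 bases before the start. Within 250 bases, 6 of the 8 genes held at least 1 E-box, and *Myh2* and *Myh1* held none. An E-box was present in 66.2% of 32851 RefSeq promoters searched the same way, TATAAA in 12.4% and the MEF2 site in 2.92%. These letters describe the windows and say nothing of binding.

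The recovered read counts summed to 14436914 and 13240754 in the control and to 20047430 and 16190414 in the Prmt5sKO libraries. Within a group the libraries could not be matched to replicate numbers and are called deeper and shallower by these sums, and values are given in that order. *Prmt5* was low in both libraries labelled mutant, with 244 and 202 normalized counts against 2273 and 2906 in the control. Genes with a mean of at least 5 normalized counts, 16212 in all, were compared with limma-voom, and 0 passed an adjusted p of at most 0.05 with a 2-fold change. *Prmt5* itself did not pass, with a log2 fold change of -3.52 and the smallest adjusted p of the fit (limma-voom adjusted p = 0.193). A gene that misses this threshold may therefore still differ. At an unadjusted p under 0.05, 975 genes (6.01%) were higher and 1126 (6.95%) lower in Prmt5sKO, and a limma-trend fit called 1 gene, which was no member.

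All 8 members passed the filter, *Myh2* only through its Prmt5sKO counts. None of the 8 passed the adjusted threshold, as for 0.0% of all genes, and the adjusted p (limma-voom, Benjamini-Hochberg) ran from 0.276 to 0.731. The fitted log2 fold change, Prmt5sKO minus control, was at least 1 for 7 members, against 12.8% of all genes, and its median was 2.89 over the members and 0.02 over all genes. Both Prmt5sKO libraries lay above both control libraries for 3 members, *Myh3*, *Myh2* and *Myh1*, where 25.2% of all genes did so, and 0 members lay below, against 23.6%. The groups overlapped for the other 5. The difference was carried by 1 library: in the shallower Prmt5sKO library 7 members lay above both controls (39.7% of all genes did), and in the deeper one 3 members did (38.9%), while 2, *Myh7* and *Myh6*, lay below both controls there (36.1%). Without the shallower Prmt5sKO library, 3 members had a log2 fold change of at least 1 and the median was 0.22. In bulk RNA, more cells of a type and more RNA per cell cannot be told apart.

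**Figure D2:**
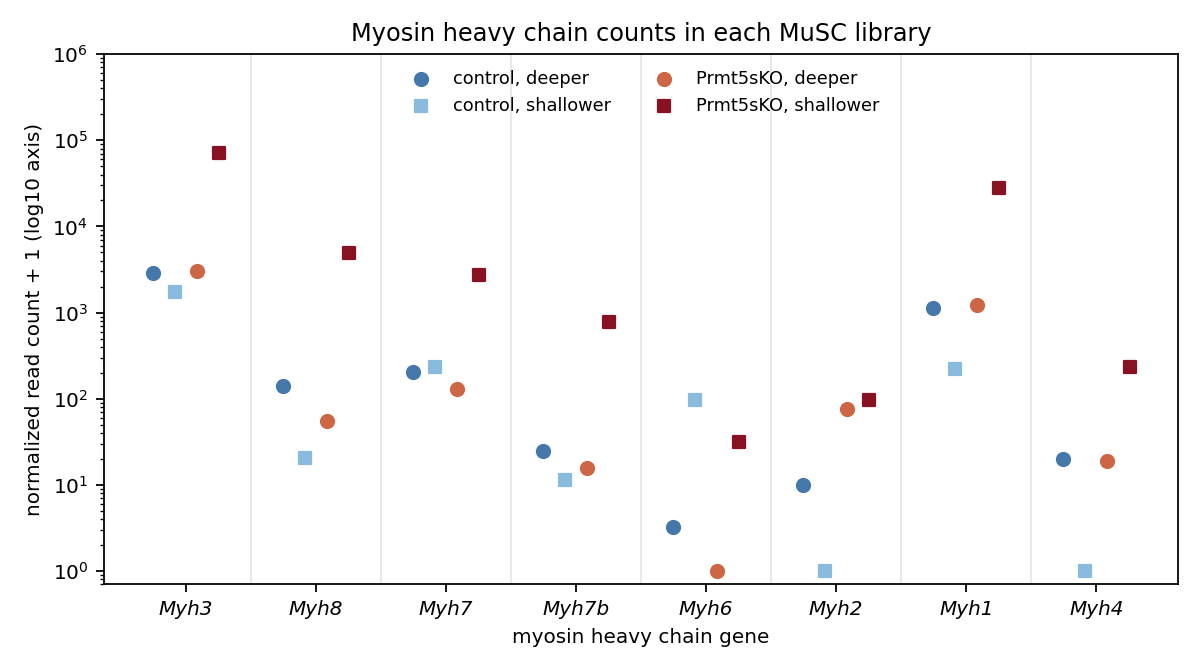
Normalized read count plus 1 (log10 axis) of the 8 myosin heavy chain genes, with 1 point per library: circles for the deeper and squares for the shallower library of a group, blue for control and red for Prmt5sKO. The dark red squares, the shallower Prmt5sKO library, are highest for every gene except *Myh6*, and *Myh2* is the one gene for which the Prmt5sKO points lie close together above the control.

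*Myh3*, the embryonic heavy chain and the first to appear in differentiating muscle cells, had 2858 (deeper) and 1738 (shallower) normalized counts in the control and 3024 (deeper) and 70413 (shallower) in Prmt5sKO. The deeper mutant library thus stood within 1.32-fold of the control mean, while the shallower stood 23.3-fold above the deeper mutant. The log2 fold change was 2.75 with a standard error of 1.30 (limma-voom adjusted p = 0.419). Leaving out the shallower Prmt5sKO library gave 0.44, and leaving out the deeper one gave 4.98 (limma-voom adjusted p = 0.00112). *Myh3* was the most highly expressed member per length in all 4 libraries. By normalized count per kilobase of exon it ranked 1756 and 2795 among 19782 genes in the control, against 1518 and 120 in Prmt5sKO.

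*Myh8*, the perinatal heavy chain that follows *Myh3* in development, had 138 and 19.5 normalized counts in the control and 54.8 and 4902 in Prmt5sKO. The deeper mutant library lay between the controls, and the shallower one lay above every other library by more than for any other member. The shallower exceeded the deeper mutant library 89.4-fold, the fourth largest such difference of the 16212 genes tested on the log2(normalized count + 1) scale. The log2 fold change was 3.04 with a standard error of 3.43 (limma-voom adjusted p = 0.714). It was -0.0022 without the shallower Prmt5sKO library and 6.47 without the deeper one (limma-voom adjusted p = 0.00392).

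*Myh7*, the slow heavy chain of type 1 fibres and the beta chain of the heart, had 205 and 231 normalized counts in the control and 129 and 2725 in Prmt5sKO. The controls were close to each other, the deeper mutant library was the lowest of the 4, and the shallower was 21.1-fold above it. The log2 fold change of 1.33 with a standard error of 1.60 (limma-voom adjusted p = 0.731) turned to -0.75 without the shallower Prmt5sKO library and was 3.65 without the deeper one (limma-voom adjusted p = 0.00138). *Myh7b*, a related slow-type gene whose intron harbours a microRNA, had 23.7 and 10.4 normalized counts in the control and 14.8 and 781 in Prmt5sKO. Here too the deeper mutant library lay between the controls and the shallower stood apart, 52.7-fold above the deeper. Its log2 fold change of 2.39 with a standard error of 2.84 (limma-voom adjusted p = 0.729) was -0.14 without the shallower Prmt5sKO library and 5.55 without the deeper one (limma-voom adjusted p = 0.00592).

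*Myh6*, the alpha heavy chain of the heart, was the exception. Its normalized counts were 2.26 and 96.0 in the control and 0 and 30.2 in Prmt5sKO, from 2, 74, 0 and 30 reads. The shallower control library held the most. With 3 reads, or 2.22 normalized counts, set in place of the 0 of the deeper mutant library, the shallower mutant library was 13.6-fold higher. That fold leaves out the counting error of the shallower library. The fitted log2 fold change was -2.47 with a standard error of 2.62 (limma-voom adjusted p = 0.698), and it became 1.03 without the deeper Prmt5sKO library and -5.34 without the shallower one. Without the shallower control library it was -0.03. Of 4 cardiomyocyte markers examined, *Myl7*, an atrial light chain, had 0 and 25.9 normalized counts in the control and 0 and 1.01 in Prmt5sKO, and *Nppa*, the atrial natriuretic peptide, had 10.4 in the shallower control library and 0 elsewhere. The summed level of the 4 markers was 12.4 and 61.0 in the control and 47.4 and 34.2 in Prmt5sKO, where *Tnni3* took the larger part in both libraries. The part of such transcripts in the *Myh6* values was not tested.

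*Myh1*, the fast 2X heavy chain, had 1140 and 219 normalized counts in the control and 1227 and 27597 in Prmt5sKO. The deeper mutant library was close to the deeper control, and the shallower mutant stood 22.5-fold above the deeper. The log2 fold change was 3.52 with a standard error of 1.56 (limma-voom adjusted p = 0.403). Without the shallower Prmt5sKO library it was 1.24, and without the deeper one 5.74 (limma-voom adjusted p = 0.00618). *Myh4*, the fast 2B heavy chain, had 19.2 and 0 normalized counts in the control and 17.8 and 235 in Prmt5sKO. The deeper mutant library was just below the deeper control, and the shallower was 13.2-fold above the deeper. Its log2 fold change was 3.89 with a standard error of 2.77 (limma-voom adjusted p = 0.563). For *Myh4* it was 2.23 without the shallower Prmt5sKO library and 5.93 without the deeper one. Without the deeper control it was 6.48, and 1.57 without the shallower control. In that control 3 reads in place of the 0 would be 3.89 normalized counts.

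*Myh2*, the fast 2A heavy chain, differed from the rest in that the Prmt5sKO libraries were alike. It had 9.04 and 0 normalized counts in the control and 74.1 and 94.5 in Prmt5sKO, from 8, 0, 100 and 94 reads. Both mutant libraries lay above both controls, and they differed from each other by 1.28-fold. The log2 fold change was 4.98 with a standard error of 1.34 (limma-voom unadjusted p = 0.00972, adjusted p = 0.276). The unadjusted p was under 0.05 for 1 member, *Myh2*, and for 6.01% of all genes in this direction. Since *Myh2* entered the fit only through its mutant counts, with a control mean of 4.52 under the minimum of 5, it had to be higher in Prmt5sKO, though not by this much. Its p therefore supports nothing further. With no filter on low counts the log2 fold change was 4.99 (limma-voom adjusted p = 0.263). Leaving out the shallower or the deeper Prmt5sKO library gave 4.81 and 5.17, and leaving out the deeper or the shallower control gave 6.99 and 3.12, all of them with an adjusted p (limma-voom) of at least 0.104. *Myh2* has stretches identical to *Myh1*, which had 1656 and 27441 reads in the mutant libraries. Reads of *Myh2* came to 1.63% of all heavy chain reads in the deeper mutant library (95% Wilson interval 1.34 to 1.98%) and to 0.0885% in the shallower one (0.0724 to 0.108%). The interval covers counting error only. The 2 mutant libraries thus differed in *Myh1* by 22.5-fold with a nearly equal *Myh2*, and the part of reads from *Myh1* in the *Myh2* counts was not tested.

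Between the Prmt5sKO libraries, 7 of 8 members were at least 4-fold higher in the shallower on the log2(normalized count + 1) scale, where 4.63% of all genes were. The median difference between these libraries was 4.52 over the members and -0.02 over all genes. Ranked by that difference among 16212 genes, *Myh8* was 4, *Myh7b* 12, *Myh6* 29, *Myh3* 45, *Myh1* 48, *Myh7* 56 and *Myh4* 137, and *Myh2* was 4800. The controls also differed on the log2(normalized count + 1) scale. The deeper control library was at least 4-fold above the shallower for *Myh8*, *Myh2*, *Myh1* and *Myh4*, against 4.28% of all genes. The shallower was so for *Myh6*, against 2.41%. *Myh2* and *Myh4* had 0 reads in the shallower control. With 3.89 normalized counts set in place of that 0, the deeper control was 2.32-fold higher for *Myh2* and 4.94-fold for *Myh4*. The 4-fold difference of *Myh2* was thus not reached with that value. *Myh3* and *Myh7* differed between the controls by 1.64-fold and 0.886-fold, deeper over shallower. With the deeper Prmt5sKO library left out, 5 members passed the adjusted threshold, *Myh3*, *Myh8*, *Myh7*, *Myh7b* and *Myh1*, all higher, against 2.43% of all genes, while with the shallower left out 0 of the 8 did, against 0.149%. In both cases the lone mutant library was assumed to vary like the controls. Where each deeper library was paired with the shallower library of the other group, *Myh8*, *Myh7b* and *Myh1* passed, against 1.17% of all genes that did so as higher, although nothing in the labels pairs them.

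**Figure D3:**
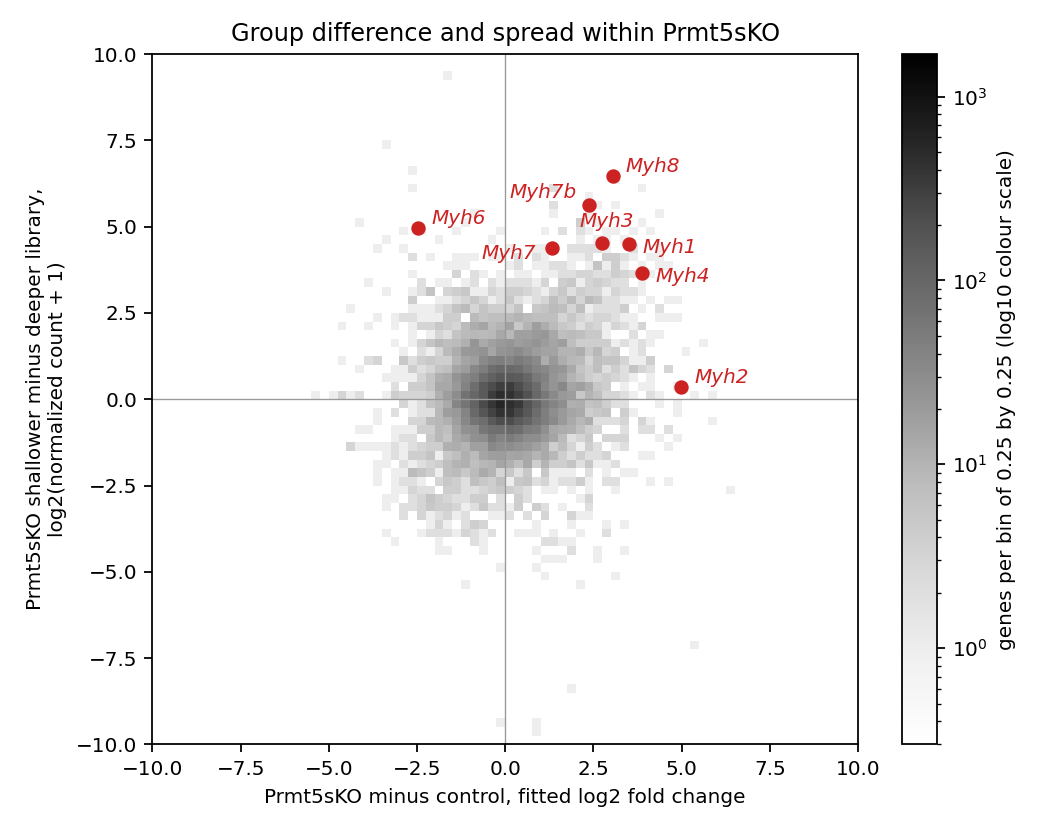
Fitted log2 fold change, Prmt5sKO minus control (horizontal axis), against the difference between the shallower and deeper Prmt5sKO libraries in log2(normalized count + 1) (vertical axis), with grey bins for 16211 of the 16212 genes tested and red points for the members. Every member except *Myh2* lies at 3.65 or more on the vertical axis, while *Myh2* lies at 0.35 with the highest fold change of the members, 4.98.

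The summed level of the members was 695 and 366 normalized counts per kilobase of exon in the control and 728 and 16876 in Prmt5sKO, so that the deeper mutant library was close to the deeper control and the shallower mutant 23.2-fold above the deeper. As a share of all reads, the members took 269 and 135 CPM in the control and 306 and 6558 CPM in Prmt5sKO. Within this sum the shares of the most abundant members, *Myh3* and *Myh1*, were alike in 3 of the libraries. *Myh3* made up 67.9% and 78.5% of the summed level per length in the control and 68.6% and 68.9% in Prmt5sKO. *Myh1* made up 25.8% and 9.43% in the control and 26.5% and 25.7% in Prmt5sKO. The ratio of *Myh1* to *Myh3* per length was 0.380 in the deeper control and 0.387 and 0.374 in the mutant libraries, but 0.120 in the shallower control. The mutant libraries thus had almost the same proportion of embryonic to 2X message at 23.2-fold different totals.

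*Myh7* made up 3.42% and 7.33% of the summed level in the control and 2.06% and 1.87% in Prmt5sKO, with both mutants below both controls. *Myh8* made up 1.68% and 0.452% in the control and 0.640% and 2.47% in Prmt5sKO. Its annotated exons span 11772 bases, against 6149 in its longest coding transcript. Per length of that transcript, a measure added after seeing the data, *Myh8* made up 3.09% and 0.829%, then 1.19% and 4.52%. On that measure *Myh7* made up 4.53% and 9.71%, then 2.76% and 2.48%. *Myh2* took 0.182% and 0% in the control and 1.43% and 0.0785% in Prmt5sKO, and *Myh6* took 0.0483% and 3.90%, then 0% and 0.0266%. *Myh7b* and *Myh4* stayed below 1% in all libraries. The exact two-sided permutation test over libraries gave 0.333 for *Myh7* and *Myh6*, the smallest p that 2 against 2 libraries allow, 0.667 for *Myh1*, *Myh8* and *Myh2*, and 1.0 for *Myh3*, so that no share could reach 0.05 in this design.

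**Figure D4:**
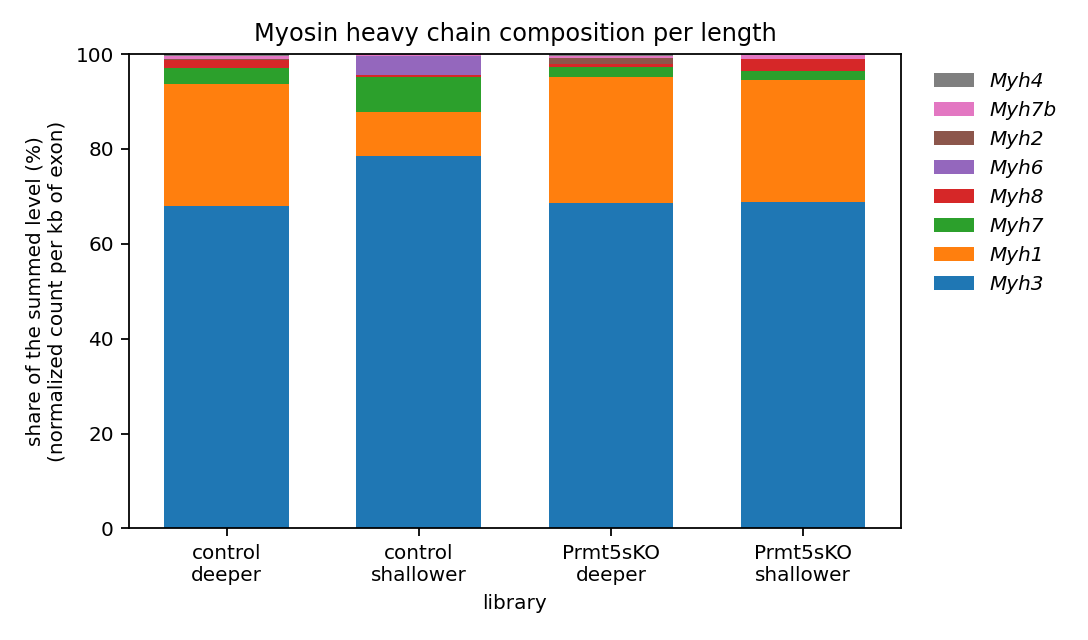
Share of each member in the summed myosin heavy chain level (percent, normalized count per kilobase of exon) in each of the 4 libraries, stacked from 0 to 100%. *Myh3* and *Myh1* together fill 93.7% and 87.9% of the control bars and 95.2% and 94.6% of the Prmt5sKO bars, and *Myh6* and *Myh7* are widest in the shallower control.

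By level per kilobase of exon, *Myh3* was first and *Myh1* was next in each of the 4 libraries. The order behind them was not stable. *Myh7* came next in 3 libraries, with 23.7 and 26.8 in the control, and *Myh8* took its place in the shallower mutant with 416 against 316. In that library *Myh7b* followed with 118, *Myh4* with 39.1, *Myh2* with 13.3 and *Myh6* with 4.49, whereas *Myh6* was ahead of *Myh8* in the shallower control (14.3 against 1.65). The adult fast 2A and 2B genes thus remained far below *Myh1* in all libraries, with *Myh2* at 0.0538 of the *Myh1* level in the deeper mutant and 0.00305 in the shallower.

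The 5 genes whose profile over the 4 libraries was nearest to that of *Myh3*, by root mean square difference of centred log2 levels among 11487 genes with a mean of at least 50 normalized counts, were *Scn4a*, *Myl1*, *Mef2c*, *Cmya5* and *Myom1*. The difference was 0.06 for *Scn4a*, the sodium channel of skeletal muscle, which had 38.4 and 20.7 normalized counts in the control and 40.8 and 932 in Prmt5sKO. It was 0.11 for *Myl1*, the essential light chain of fast fibres, with 275 and 152 in the control and 316 and 7379 in Prmt5sKO, and 0.20 for *Myom1*, an M-band protein and the last of the 5. Among the members, *Myh7b* ranked 23 by likeness to *Myh3*, *Myh7* 79, *Myh1* 83, *Myh8* 162 and *Myh4* 427, and *Myh6* and *Myh2* were under the minimum level. The likeness rests on 4 libraries and largely on the shallower Prmt5sKO library, in which all 5 genes were highest.

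**Figure D5:**
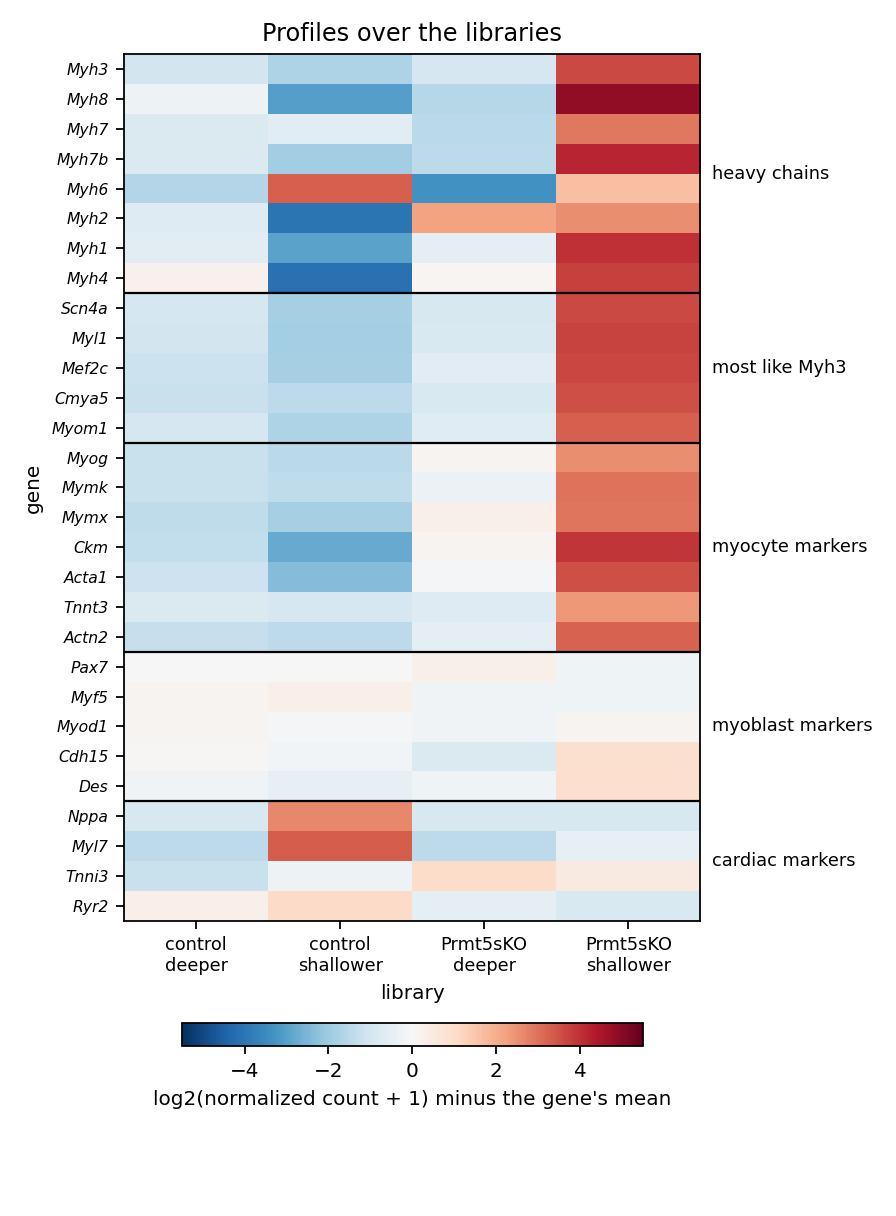
Profiles of the heavy chains, of the 5 genes most like *Myh3* and of myocyte, myoblast and cardiac marker genes over the 4 libraries, as log2(normalized count + 1) minus the gene's own mean (colour scale, red above and blue below the mean). The shallower Prmt5sKO column is red for all heavy chains, 7 of them at 2.54 or more above their mean and *Myh6* at 1.65, and for all myocyte markers. *Myh6*, *Nppa* and *Myl7* are highest in the shallower control.

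A list of 22 myosin light chain and thick filament genes, which also holds titin, light chain kinases and the light chains of non-muscle and smooth muscle myosin, had 14 genes above both controls in both mutant libraries and 1 below (25.2% and 23.6% of all genes did). At an unadjusted p under 0.05, 3 were higher (6.01% of all genes), *Mylpf*, *Myl9* and *Myl12b*, and 0 passed the adjusted threshold of limma-voom. *Myl12b*, named after its values were seen, and *Myl9* belong to non-muscle or smooth muscle myosin. The median log2 fold change of the list was 1.21, and 12 of the 22 were at least 4-fold higher in the shallower than in the deeper mutant library (4.63% of all genes). *Mylpf*, the regulatory light chain of fast fibres, had 1771 and 855 normalized counts in the control and 2855 and 47465 in Prmt5sKO. *Myl12a* and *Myl9*, regulatory light chains of non-muscle and smooth muscle myosin, differed little between the mutant libraries, with 12487 and 14125 for *Myl12a* and 2385 and 1958 for *Myl9*.

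The other class II heavy chains with a row, 5 in number, had a median log2 fold change of -0.08, with 1 above both controls in both mutant libraries, *Myh13*, and 1 below, *Myh10* (25.2% and 23.6% of all genes did). *Myh9*, the main non-muscle heavy chain, had 45429 and 43934 normalized counts in the control and 46199 and 38772 in Prmt5sKO, *Myh10*, another non-muscle form, had 5468 and 3543 against 1966 and 2855 (log2 fold change -0.89, limma-voom unadjusted p = 0.0260, adjusted p = 0.330, the 1 gene of the list at an unadjusted p under 0.05), and *Myh14* stayed between 11.3 and 40.2. *Myh9* thus exceeded *Myh3* per length in 3 libraries, and its log2 difference between the mutant libraries, shallower minus deeper, was -0.25, against 4.54 for *Myh3*. *Myh13*, the extraocular heavy chain that lies next to *Myh8*, had 0 and 2.59 normalized counts in the control and 5.93 and 48.3 in Prmt5sKO.

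A list of 9 genes, chaperones of myosin and general chaperones together with *Murc*, a caveolar protein of muscle, had 2 genes above the controls in both mutant libraries, *Unc45b* and *Murc*, and 1 below (25.2% and 23.6% of all genes did), and 0.21 was their median log2 fold change. At an unadjusted p under 0.05, 1 was higher, *Murc* (6.01% of all genes were). Of the 9, 3 were at least 4-fold higher in the shallower than in the deeper mutant library (4.63% of all genes), *Unc45b*, *Smyd1* and *Cryab*. *Unc45b*, a chaperone of the myosin head, had 86.7 and 1561 normalized counts in the mutant libraries, *Smyd1* had 1057 and 4947 and *Cryab* had 1097 and 5743, and these and *Murc* were named after their values were seen. The most abundant, *Hsp90ab1*, *Hspa8* and *Hsp90aa1*, had log2 fold changes of -0.35, -0.07 and -0.22, none past the adjusted threshold of limma-voom. Of 35 regulators of myosin genes, 12 lay above and 5 below the controls in both mutant libraries (25.2% and 23.6% of all genes did), and 0.34 was the median log2 fold change. At an unadjusted p under 0.05, 6 were higher and 0 lower (6.01% and 6.95% of all genes). *Myod1*, the myogenic determination factor that acts on E-boxes, had 15445 and 12944 normalized counts in the control and 12153 and 15548 in Prmt5sKO, and the groups overlapped. *Myog*, the factor that drives terminal differentiation, had 1436 and 1189 in the control and 3707 and 19508 in Prmt5sKO (log2 fold change 2.72, limma-voom adjusted p = 0.276), so that it was higher in both mutant libraries, also in the deeper one. *Id1*, an inhibitor of MyoD-family factors, overlapped between the groups with a log2 fold change of -0.37. *Thra* and *Thrb*, the thyroid hormone receptors that act on heavy chain genes, and *Prox1*, *Nfatc2* and *Vgll3* were the others at an unadjusted p under 0.05, named after their values were seen, with log2 fold changes of 1.22, 1.53, 2.13, 2.44 and 0.90.

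Markers of differentiating myocytes were highest in the same library as the heavy chains. All 7 were higher in both mutant libraries than in both controls and at least 4-fold higher in the shallower than in the deeper mutant library (25.2% and 4.63% of all genes were). Their fitted log2 fold changes had a median of 2.72. Their summed level was 5345 and 3568 in the control and 10855 and 102086 in Prmt5sKO. *Acta1*, the skeletal actin, had 2366 and 1001 normalized counts in the control and 4951 and 60227 in Prmt5sKO. In the deeper mutant library the 7 myocyte markers therefore stood above both controls, where 3 of the 8 heavy chains and 38.9% of all genes did. *Tnnt3* did so narrowly, at -0.69 against -0.79 and -0.91 in log2(normalized count + 1) minus its own mean. The 5 satellite cell and myoblast markers, among them *Pax7*, had reads in all 4 libraries and a median log2 fold change of 0.01, with 0 above and 1 below the controls in both mutant libraries (25.2% and 23.6% of all genes did). Summed levels of the other marker lists lay between 56.3 and 163 for endothelial, 58.5 and 112 for blood, 25.9 and 41.8 for Schwann and 0 and 25.9 for adipocyte markers. Those of fibroblast and smooth muscle markers were highest in the shallower Prmt5sKO library, as 7 of the 8 heavy chains were. They came to 6178 and 1904 in the control and 4082 and 12883 in Prmt5sKO for fibroblast markers, with 0 of 5 above the controls in both mutant libraries. For the 4 smooth muscle markers they came to 8807 and 9223 against 13717 and 40450, with *Acta2* taking most of the sum. Of the 3 that passed the filter, 2 lay above. Of all genes, 25.2% lay above the controls in both mutant libraries. *Ptprc* and *Adgre1* of the blood list and *Adipoq* of the adipocyte list had no row, so those sums leave them out. The part of cell makeup in the heavy chain values was not tested.

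Of the nearest protein-coding genes on the sides of the clusters, *Myh13*, itself a heavy chain gene, differed between the mutant libraries by 2.83 on the log2(normalized count + 1) scale, with its values given above. *Sco1*, before *Myh3* on chromosome 11, had 433 and 341 normalized counts in the control and 359 and 529 in Prmt5sKO. *Ngdn*, beyond *Myh7* on chromosome 14, had 547 and 450 against 451 and 482, and *Cmtm5*, on the *Myh6* side, had 1.13 and 1.30 in the control and 0 and 5.03 in Prmt5sKO, too few for the filter. *Gss* and *Trpc4ap*, on either side of *Myh7b* (the annotated span of *Trpc4ap* overlaps its end), had log2 fold changes of 0.61 and 0.54 (limma-voom adjusted p = 0.548 and 0.377). Between the mutant libraries *Gss* differed by 0.72 on the log2 scale, *Sco1* by 0.56 and *Trpc4ap* by -0.12, against 5.63 for *Myh7b* and 4.54 for *Myh3*.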

How the data were processed

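RNA of 4 MuSC libraries was depleted of ribosomal RNA and sequenced on the Ion Torrent Proton. The authors trimmed reads with Reaper, aligned them to GRCm38 with STAR, counted them per Ensembl gene and divided by DESeq2 size factors. The signal values deposited by the authors are means of these normalized counts over the libraries of a group. The deposited log2 fold changes, standard errors and p-values of the authors were not used. Reads with several positions or overlapping several genes were left unassigned by the authors, and the counting strand is not given in the sources used here. Whole counts per library were recovered for 100% of 20065 genes from the steps of the group means. They were scaled by TMM (own code, trims of 30% and 5%), filtered at a mean normalized count of at least 5 and compared by limma-voom (limma 3.58.1, R 4.3.3) with Benjamini-Hochberg adjustment over 16212 genes, with calls at 0.05 (adjusted p) and 2-fold or more. The fit was tested on counts simulated with the same relative spread between libraries for all genes. That test does not cover the spread seen between the Prmt5sKO libraries. DESeq2 and edgeR were not run here. Fold changes between libraries are of normalized counts, and differences in log2 use normalized count + 1. Levels are per kilobase of annotated exon (GENCODE M21, which gave symbols to 19782 identifiers). Named genes are all members, the 3 of each list with the highest mean level per length (of the marker lists, only those a result touches), the 8 nearest to *Myh3* (of which 5 are given, since 1 item is not reported here), the nearest protein-coding neighbours and *Prmt5*; others are said to be named after their values were seen. Members and lists were chosen with earlier results of these data known. Other scalings, filters, a limma-trend fit, replicate blocks, thinning and leaving out each library were tried. Promoter sequences are RefSeq's and were matched by symbol for all 8 members. Tables were handled in Python 3.11.15 with pandas 2.3.3.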

Additional observations from a re-analysis of the deposited data

How the results depend on the processing

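Over 9 alternatives that keep all 4 libraries, the 8 members gave 72 log2 fold changes, of which 0 turned direction and 3 passed the adjusted threshold, all with a replicate block. Both pairings of the libraries were fitted, since neither is given. With the deeper libraries paired 0 genes were called, and with the crossed pairing 346 were, among them *Myh1* (3.92, limma-voom adjusted p = 0.0181), *Myh8* (4.74, 0.0181) and *Myh7b* (4.22, 0.0462). Deviations from the group means had a correlation of -0.29 across 11487 genes in the first pairing. The value of the crossed pairing is the same with its sign turned, so it is no separate result and does not choose between the pairings. Nothing in the labels pairs the libraries. Limma-trend called 1 gene, which was no member. Leaving out a library gave between 0 and 489 called genes: 489 without the deeper and 55 without the shallower Prmt5sKO library, 0 without either control. Of the 32 member values so obtained, 5 passed the threshold and 4 reversed: *Myh6* to 1.03 without the deeper Prmt5sKO library, and *Myh7* to -0.75, *Myh7b* to -0.14 and *Myh8* to -0.0022 without the shallower one. Leaving out each library, *Myh6* ran from -5.34 to 1.03, *Myh7* from -0.75 to 3.65, *Myh7b* from -0.14 to 5.55 and *Myh8* from -0.0022 to 6.47. The median over the members ran from 0.22 to 5.36 with a library left out. Scaling by library size moved the median of all genes to 0.13 and that of the members to 3.04. The mean share of *Myh3* in Prmt5sKO, 68.8%, was 62.3% per unshared 50-base words, 66.1% per 100-base words, 66.5% per longest coding transcript (added after seeing the data) and 66.3% in reads, and that of *Myh1*, 26.1%, was 32.5% and 28.9% per unshared words. DESeq2 and edgeR were named as alternatives and were not run. With 2 libraries per group, counts under 3 reads in a library limit *Myh6*, *Myh2* and *Myh4* most.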

Other observations

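Non-coding transcripts inside the chromosome 11 cluster were looked at after the values of the members were seen. *Myhas* (chr11:67211256-67237573), on the minus strand and overlapping *Myh1*, had 2.26 and 0 normalized counts in the control and 3.70 and 54.3 in Prmt5sKO. *9430073C21Rik*, on the minus strand and overlapping the end of *Myh2*, had 10.2 and 0 in the control and 3.70 and 53.3 in Prmt5sKO. *2310065F04Rik*, between *Myh3* and *Myh2*, had 1.13 and 0 in the control and 4.45 and 24.1 in Prmt5sKO. *Mir6923*, which lies within *Myh3* on the same strand, had 11.3 and 0 in the control and 1.48 and 67.4 in Prmt5sKO. All 4 were highest in the shallower Prmt5sKO library and at 0 in the shallower control, where 3 reads in place of the 0 would be 3.89 normalized counts. None passed the adjusted threshold of limma-voom, with adjusted p from 0.461 to 0.800. The counting strand is not given in the sources used here, and for *Myhas*, *9430073C21Rik* and *Mir6923* their own reads cannot be told apart from intronic reads of the heavy chain gene that each overlaps.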
